A study of Mus musculus with 2 samples.

Results

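The genes described here are 10 regulators of the primitive streak and of mesendoderm. They are T, Eomes, Mixl1, Evx1, Gsc, Wnt3, Wnt8a, Fgf8, Mesp1 and Snai1, found by name among the 30774 gene identifiers of an Illumina mouse beadchip, with 1 identifier for each gene. RNA was compared between mouse embryonic stem cells (mESCs) of strain B6 kept in serum medium with LIF, a cytokine acting through Stat3, and such cells in LIF/CHIR99021. CHIR99021 (CHIR) blocks the kinase GSK3, which lets β-catenin accumulate and turns on Wnt target genes. Both cultures carried LIF, the treatment lasted 12 h, and each condition was measured on 1 array. The labels give the inner cell mass of the blastocyst as the origin of the cells. The labels state no dose of CHIR for the arrays, and the paper's screening flow chart names a different mESC line from the labels.

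The primitive streak is the band of the gastrulating epiblast in which cells leave the epithelium and become mesoderm or definitive endoderm. Wnt3 and Nodal signals start it, T and Eomes are its T-box transcription factors, and the homeobox factors Mixl1, Evx1 and Gsc mark different positions along it. Wnt8a and Fgf8 are secreted in the streak, Mesp1 marks the first mesoderm that leaves it, and Snai1 represses E-cadherin during the exit. T is a direct target of Wnt/β-catenin signaling. In naive mESCs their expression is low.

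Of the 10 genes, 4 were detected in at least 1 of the cultures (detection p-value under 0.01), against 31.2% of all identifiers. The detection p-value gives the share of negative control beads that were as bright as the gene, or a value combined over probes where a gene has several. Evx1 and Wnt8a were detected in both conditions, and T and Gsc in LIF/CHIR99021 only. Eomes, Mixl1, Wnt3, Fgf8, Mesp1 and Snai1 were detected on neither array, which does not show that their RNA was absent. T, Wnt8a and Evx1 had a signal at least 1.5-fold higher with CHIR, and no member had a lower one of that size. Over all 9366 identifiers with a fold, 3.03% passed the limit of 1.5-fold as higher with CHIR and 3.22% as lower. At 2-fold, which T and Wnt8a passed, the shares were 0.811% higher and 0.577% lower. After normexp background correction fitted on all identifiers, 0 members passed 1.5-fold as higher. That setting also cut the counts over all identifiers from 284 higher and 302 lower to 55 and 48. Fitted on 1-probe identifiers, the correction left 4 members higher, with 271 higher and 257 lower over all identifiers. With 1 array per condition no difference has a replicate check or a p-value, and CHIR cannot be told apart from anything else in which the cultures differed.

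**Figure D1:**
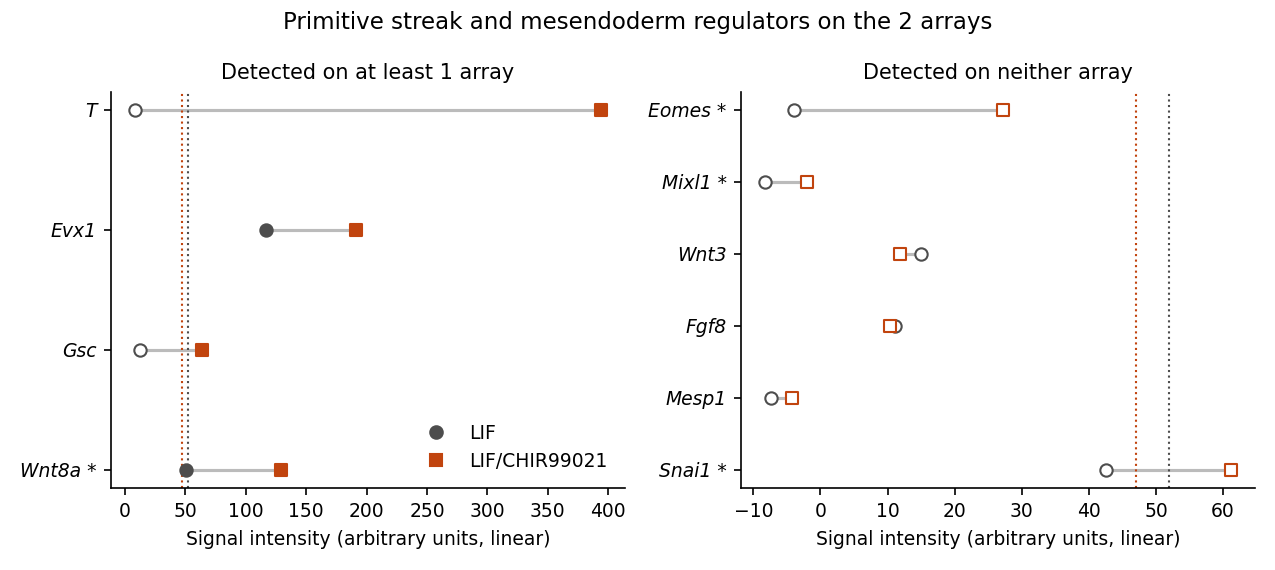
Signal intensity (linear, arbitrary units) of the 10 members in LIF (circles) and LIF/CHIR99021 (squares), filled where detected at p under 0.01; an asterisk marks genes with several probes. Dotted lines are the lowest detected signals of 1-probe identifiers, 51.9 in LIF (dark) and 47.1 in LIF/CHIR99021 (orange); T moves from left of both lines to 394.5.

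The T-box factors came first. T (Entrez gene 20997, annotated to chromosome 17, band 17qA1) had a signal of 8.05 in LIF, where 209 of 936 negative controls were as bright. In LIF/CHIR99021 its signal was 394.5 and 0 of 936 negative controls reached it, which allows a share of up to 0.321%. T was thus at background in one condition and far above every negative control in the other. Since T had no measured level in LIF, its fold is a bound. Set against the lowest detected 1-probe signal in LIF, T with CHIR was higher by at least 7.60-fold (log2 fold 2.93). T2, a separate gene named brachyury 2 on the array, had -14.5 in LIF and -12.2 in LIF/CHIR99021, both below 0 after background subtraction. Eomes, needed for definitive endoderm and for the exit of mesoderm from the streak, is represented by a Riken entry with several probes and no Entrez number. Its signal was -3.90 in LIF and 27.2 in LIF/CHIR99021, with detection p-values of 0.653 and 0.112. The difference of 31.1 lay inside the range that held the central 95% of 4598 identifiers with several probes undetected on both arrays (-50.8 to 58.6).

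The sequences before the starts of T, Gsc and Evx1 are shown because these are the 1-probe members with a fold, and because they differ in CTTTG, the core letters bound by Tcf/Lef factors, the partners of β-catenin. Each run is the 250 bases before the RefSeq start in GRCm38.p6, 5′ to 3′ on the strand of the gene, with CTTTG and its reverse complement CAAAG in capitals. T lies at chr17:8434173-8434422 on the plus strand, Evx1 at chr6:52313248-52313497 on the plus strand and Gsc at chr12:104473237-104473486 on the minus strand.
T: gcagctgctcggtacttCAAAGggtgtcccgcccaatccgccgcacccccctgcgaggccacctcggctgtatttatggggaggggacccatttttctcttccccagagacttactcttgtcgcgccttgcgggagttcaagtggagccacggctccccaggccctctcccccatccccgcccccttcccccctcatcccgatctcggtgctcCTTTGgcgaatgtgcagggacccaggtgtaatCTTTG
Evx1: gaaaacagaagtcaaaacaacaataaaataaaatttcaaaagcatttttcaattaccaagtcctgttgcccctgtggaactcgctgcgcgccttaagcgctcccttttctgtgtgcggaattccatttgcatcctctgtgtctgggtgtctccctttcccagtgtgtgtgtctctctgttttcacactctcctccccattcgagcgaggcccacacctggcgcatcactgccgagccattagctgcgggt
Gsc: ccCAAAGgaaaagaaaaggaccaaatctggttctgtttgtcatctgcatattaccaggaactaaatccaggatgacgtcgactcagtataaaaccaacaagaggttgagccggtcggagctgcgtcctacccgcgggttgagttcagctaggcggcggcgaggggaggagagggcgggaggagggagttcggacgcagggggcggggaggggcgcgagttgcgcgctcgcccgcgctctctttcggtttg
The T sequence holds CTTTG at -37 and -5 and CAAAG at -233, counted from the start to the first base of the match. The Gsc sequence holds CAAAG at -248, and the Evx1 sequence holds neither. In windows from 250 bases before to 50 after the start, 6 of the 7 members with an entry had CTTTG on either strand, compared with 53.9% of 32851 windows. The longer CTTTGAT, which contains CTTTG, was in 1 of the 7 (Mesp1, at -31) and in 3.73% of all windows. AGGTGTGA, the core letters bound by T-box factors, was in Mesp1 as well, after the start, and in 1.28% of all windows. The T window was 61.7% G or C and the Evx1 window 48.7%, beside a median of 52.7%. These matches describe the letters alone, and the members with CTTTG include Eomes, Wnt3, Mesp1 and Snai1, which were not detected here.

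Among the homeobox factors, Evx1 was detected in both conditions. Evx1 (Entrez gene 14028, band 6qB3), a repressor that acts in the posterior streak downstream of Wnt and BMP signals, had a signal of 116.5 in LIF and 191.4 in LIF/CHIR99021. In both cultures 0 of 936 negative controls were as bright. The signal was 1.64-fold higher with CHIR (log2 fold 0.72), just above the limit, and was measured on both sides. Among identifiers whose brighter signal was between 100 and 1000, 3.64% passed the limit as higher and 3.71% as lower. Gsc (Entrez gene 14836, chromosome 12, band 12qE), which marks the anterior streak and the organizer, had 12.5 in LIF and 63.7 in LIF/CHIR99021. The number of negative controls as bright was 160 of 936 in LIF and 3 of 936 with CHIR. Gsc therefore crossed the detection limit at a low signal, and only a small bound can be given: the rise was at least 1.23-fold (log2 fold 0.29). With the minimum signal taken from identifiers of any kind, the log2 fold of Gsc was 2.08, past the limit. Where the brighter signal was under 100, as for Gsc, 4.95% of identifiers passed 1.5-fold as higher and 6.20% as lower. Mixl1 (Entrez gene 27217, chromosome 1, band 1qH4), which acts in streak and endoderm, stayed below 0 on both arrays, with -8.33 in LIF and -1.98 in LIF/CHIR99021. Its detection p-values were 0.754 and 0.357, combined over several probes.

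Of the 3 secreted ligands, Wnt8a alone was detected. Wnt8a (Entrez gene 20890, chromosome 18, band 18qB1), a canonical Wnt ligand of the posterior epiblast and streak, had a signal of 50.4 in LIF and 129.0 in LIF/CHIR99021. Its detection p-values were 0.0041 and 0.00026, so it was detected in both cultures and was 2.56-fold higher with CHIR (log2 fold 1.36). By its p-values Wnt8a appears to have several probes, of which the tables hold 1 averaged signal, so the probes could not be compared with each other. Wnt3 (Entrez gene 22415, chromosome 11, band 11qE1), the ligand that starts the streak, had 15.0 in LIF and 11.8 in LIF/CHIR99021. For Wnt3, 144 and 173 of 936 negative controls were as bright. Fgf8 (Entrez gene 14179, chromosome 19, band 19qC3), through which cells move away from the streak, had 11.1 and 10.3, with 175 and 190 of 936 negative controls as bright. Wnt3 and Fgf8 were the members whose deposited signal was lower with CHIR, by 3.22 units for Wnt3 and 0.79 units for Fgf8, and both differences lay inside the central 95% of 14474 undetected 1-probe identifiers (-14.9 to 14.8).

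Mesp1 (Entrez gene 17292, chromosome 7, band 7qD3), a helix-loop-helix factor of early cardiac mesoderm, had -7.33 in LIF and -4.24 in LIF/CHIR99021. For Mesp1, 569 and 456 of 936 negative controls were as bright. Snai1 (Entrez gene 20613, chromosome 2, band 2qH3), the zinc finger repressor of epithelial genes, had 42.5 in LIF and 61.2 in LIF/CHIR99021. Its combined detection p-values were 0.068 and 0.114, so the brighter array had the weaker detection. Snai1, which appears to have several probes, was given no fold.

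**Figure D2:**
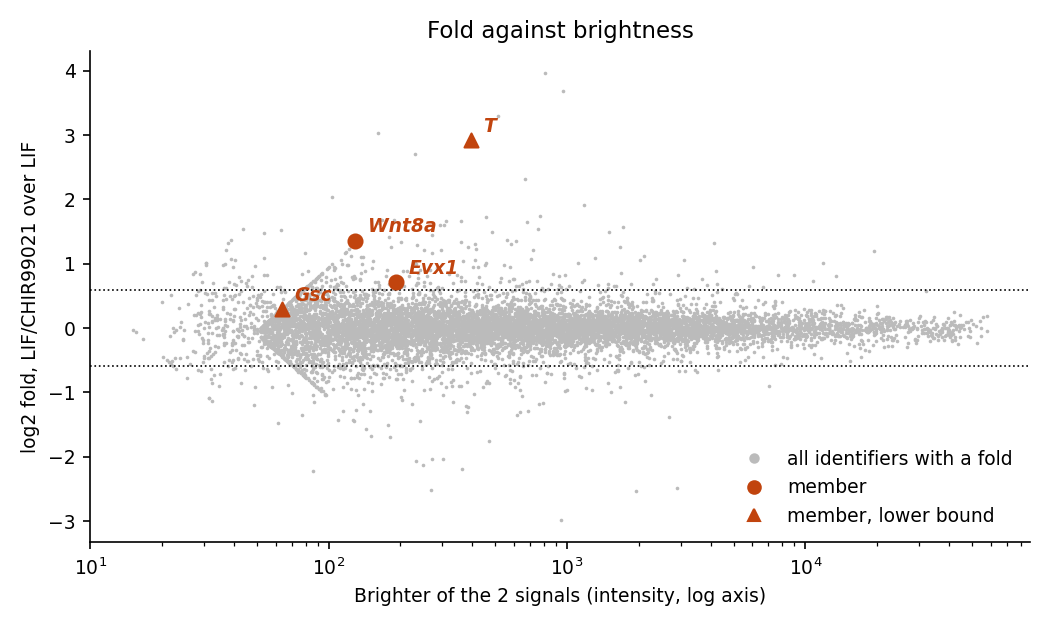
Log2 fold of LIF/CHIR99021 over LIF (vertical) against the brighter of both signals (horizontal, log axis) for 9366 identifiers, with the members in orange and dotted lines at 1.5-fold. T is a lower bound at 2.93 and stands clear of most identifiers of its brightness, Wnt8a (1.36) and Evx1 (0.72) are measured folds, and Gsc (lower bound 0.29) lies under the limit.

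Further genes of the streak and early mesoderm were taken from a list of 25, of which 24 are on the array. Of these, 11 were detected on at least 1 array and 10 had a fold. Of the 10, 7 were at least 1.5-fold higher with CHIR and 1 was lower, beside 3.03% and 3.22% of all identifiers with a fold. With genes detected on 1 array at their bound, the median log2 fold of the 10 was 1.44, and over all identifiers it was 0.00. The list was chosen with earlier results of these data known, and the paper selected Sp5 from this same comparison. These values therefore describe the listed genes and are no independent test of streak genes. The ligand Wnt3a, which maintains T in the streak and tail bud, had 108.7 in LIF and 251.7 in LIF/CHIR99021, a 2.31-fold difference. Wnt5b, a ligand of β-catenin-independent signaling, had 37.6 and 167.1 and was not detected in LIF, so it was at least 3.22-fold higher. Fst, an inhibitor of activin, had 113.4 and 359.0 (3.17-fold). Axin2, a feedback inhibitor of Wnt signaling, had 314.1 and 1178 (3.75-fold). Sp5, a zinc finger factor downstream of Wnt, had 48.8 and 809.5 and was not detected in LIF, so it was at least 15.6-fold higher. The caudal factor Cdx1 had 75.2 and 963.2 (12.8-fold), and Cdx2 had 23.6 and 93.5 with no detection in LIF (at least 1.80-fold). Dll1, a Notch ligand of the presomitic mesoderm, went the other way. Its signal was 127.5 in LIF and 38.4 in LIF/CHIR99021, where it was not detected, at least 2.71-fold lower. The ligand Fgf17 was within the limit, with 463.7 and 585.0. Tbx6, Mesp2, Lef1, Hes7, Hand1, Kdr and Pdgfra, markers of mesoderm or of its Wnt response, were among the 13 detected on neither array.

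The anterior side of the streak gives rise to node and definitive endoderm. Of 20 listed genes of these tissues, 6 were detected, all on both arrays, 1 was higher and 1 lower, and the median log2 fold was -0.38. Otx2, an epiblast and anterior factor, was 7.91-fold lower with CHIR (947.4 in LIF and 119.7 in LIF/CHIR99021). Lefty2, an inhibitor of Nodal, was 1.54-fold higher (2061 and 3172). Nodal itself had 2642 and 2030, its inhibitor Lefty1 had 2896 and 2220, and Hhex had 318.0 and 342.9, all within the limit. Chrd, with 257 in LIF and 174 in LIF/CHIR99021, was 1.48-fold lower, just short of the limit. Foxa2, Sox17, Cer1, Lhx1, Noto and Shh were detected on neither array. Lhx1 stands in both lists, which together held 43 genes on the array. Of the 16 with a fold, 8 were higher and 2 lower, beside 3.03% and 3.22% of all identifiers with a fold.

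Genes of the epithelial to mesenchymal transition, in which Snai1 acts, were taken from a list of 13. The 6 with a fold lay within 1.5-fold in either direction, with a median log2 fold of -0.16, and the other 7 were detected on neither array. Cdh1 (E-cadherin), a target of Snai1, had 467.4 in LIF and 419.5 in LIF/CHIR99021. Zeb1 had 385.0 and 295.2, Fn1 (fibronectin) had 1134 and 1352, and Snai2, Cdh2, Vim and Mmp14 were among those not detected by their p-values. Snai2 (-2.30 and -0.14) and Cdh2 (9.84 and 20.2) had low signals. Vim (659 and 829) and Mmp14 (1013 and 1081) had high signals and missed detection by their combined p-values. Epcam, named Tacstd1 on the array, was also undetected, with -14.6 in LIF and -4.84 in LIF/CHIR99021. Whether undetected genes lacked RNA or had probes that failed was not tested. Of 13 genes of the FGF pathway, in which Fgf8 acts, 6 had a fold. Of the 6, 1 was lower past the limit, beside 3.22% of all identifiers with a fold. Fgf4, the FGF ligand of mESCs, was 1.66-fold lower with CHIR (712.7 and 430.1). The feedback gene Dusp6 had 2564 and 2211, and the targets Etv4 and Etv5 had 4470 and 5619, and 5033 and 5436. The receptor Fgfr2 had 354.8 and 132.3, but missed detection by its combined p-values and got no fold. Il17rd, detected in LIF only, was brighter in LIF/CHIR99021 (144 and 168) and got no fold either.

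**Figure D3:**
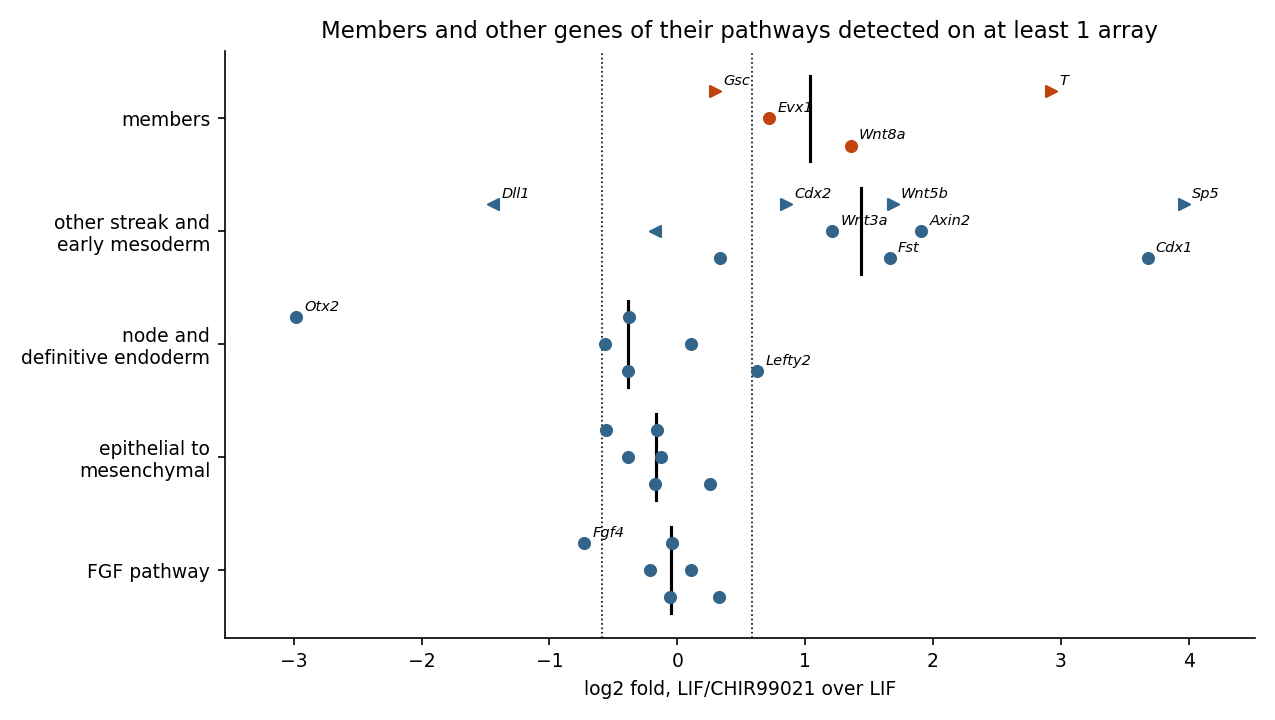
Log2 fold of LIF/CHIR99021 over LIF for members (orange) and for other genes with a fold in 4 lists (blue); triangles point in the direction of a bound, black bars are list medians and dotted lines mark 1.5-fold. The medians are 1.04 for the members and 1.44, -0.38, -0.16 and -0.05 for the lists from top to bottom. Members and lists were chosen with earlier results of these data known.

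The appearance of T and Gsc on the LIF/CHIR99021 array was set beside that of all genes. Of 23355 identifiers with 1 probe, 70 (0.300%) had a detection p-value of at least 0.05 in LIF and under 0.01 in LIF/CHIR99021, and 35 (0.150%) the reverse. T and Gsc were 2 of the 6 members with 1 probe, and no member made the reverse change. The rule for genes with the pattern of T took the 8 identifiers of any kind with the brightest signal in LIF/CHIR99021, which were Sae1, Shc1, Ppp2r5c, Mboat5, Hist1h2be, Slc12a2, Rab34 and Krt23. Of these, 7 have several probes and signals of 945.2 or more also in LIF, so their signals did not resemble those of T. Among 1-probe identifiers only, a restriction chosen after seeing the data, Krt23 came first (10.6 in LIF and 512.1 in LIF/CHIR99021) and T second. Bhmt2 (31.4 and 161.8), Dnahc8 (22.5 and 122.1) and Rerg (-1.28 and 99.8) followed, with Cdx2 in the 7th place and Gsc in the 22nd. Brightness of different probes is no measure of relative RNA amount, so this order describes signals only.

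**Figure D4:**
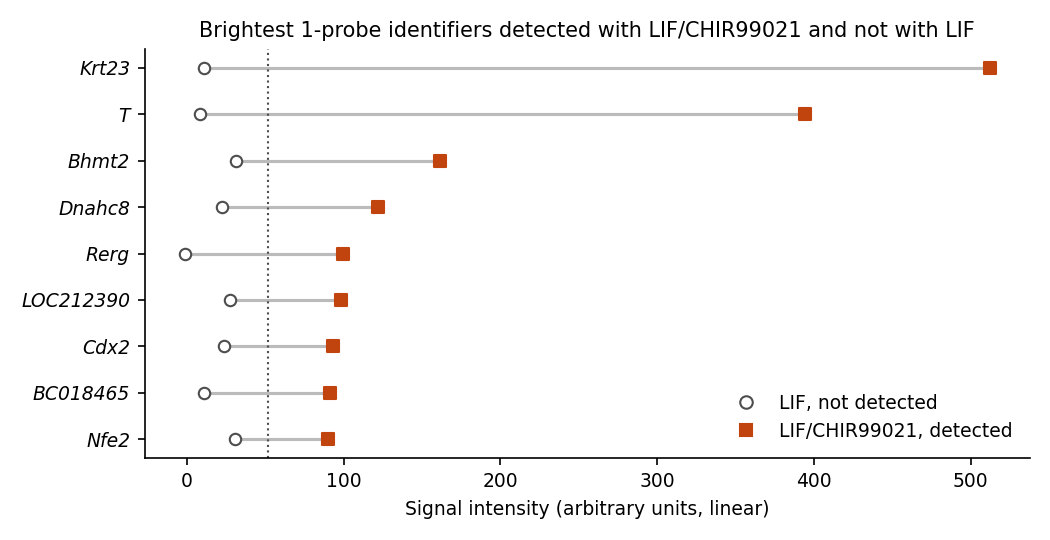
Signal intensity (linear, arbitrary units) in LIF (open circles) and LIF/CHIR99021 (squares) of the 9 brightest 1-probe identifiers with a detection p-value of at least 0.05 in LIF and under 0.01 in LIF/CHIR99021; the dotted line is the lowest detected 1-probe signal in LIF (51.9). Krt23 (512.1) and T (394.5) lie apart from the other 7, which reach at most 161.8.

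The labelled cell type was checked by marker lists. Of 10 mESC markers 9 were detected on both arrays, among them Pou5f1 (12346 in LIF and 11309 in LIF/CHIR99021), Nanog (1660 and 2429) and Zfp42 (1886 and 1993), while Sox2 (441.2 and 400.2) was not detected by its combined p-value. Of the 9, Klf2 (4332 and 7688, 1.77-fold) and Tfcp2l1 (7658 and 13485, 1.76-fold) were higher with CHIR past the limit and Fgf4 was lower. Over all identifiers with a fold, 3.03% were higher and 3.22% lower past the limit. The median log2 fold of the 9 was 0.36. The summed signal of the 10 was 45205 in LIF and 57337 in LIF/CHIR99021. None of 6 feeder fibroblast markers was detected (summed signal 213.9 and 214.7), although Thy1 had a signal of 222.3 and 225.3 that missed detection by its combined p-value. For primitive endoderm, 2 of 6 were detected (1658 and 1985), Lama1 and Sox7, and the defining Gata4, Gata6 and Sox17 were not. For trophoblast, 3 of 5 were detected (3678 and 3766), Tfap2c, Krt8 and Krt18, without Elf5 or Hand1. Of 4 neuroectoderm markers, Nes alone was detected, in LIF/CHIR99021 only, with 27.7 in LIF and 44.8 in LIF/CHIR99021 (at least 1.62-fold higher). The summed signal of the 4 was 8.0 and 56.2. Sox1, detected on neither array, differed by more units (36.2, from -7.23 to 28.9) than Nes did (17.1). Pax6 went the other way (-5.58 and -14.6). In such bulk RNA, a few cells with much T and many cells with little cannot be told apart, and the part that the shift of any marker list has in the values of the members was not tested.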

How the data were processed

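Per gene identifier and array, the authors deposited signal intensity with its detection p-value, in a table of 30774 identifiers and a shorter one of 11702 whose values are the same (0 differed). By the names the authors gave, the longer one, used here, is non-normalized and the shorter one normalized, although their shared values do not differ. Signals were already background-subtracted, with 11742 below 0 in LIF and 11741 in LIF/CHIR99021, and their medians (10.5 and 10.4) were nearly equal. The software and the method of any normalization are not given in the sources used here. From these values, detection p-values that were whole multiples of 1 over 936 on both arrays (within 0.002 of a whole number) marked 23355 identifiers as having 1 probe. The number 936 was inferred from the p-values and taken as that of negative controls.

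Folds were ratios of signals for identifiers detected, at a p-value under 0.01, in either culture or both (9021 in LIF, 9174 in LIF/CHIR99021). Signals below the lowest detected signal of the same kind of identifier (51.9 and 47.1 with 1 probe, 15.1 and 14.8 with several) were raised to it. A gene detected on 1 array got a fold, as a bound, only if that array was still the brighter after this step. This left 249 identifiers without one, among them Rspo3 (11.7 in LIF and 50.5 in LIF/CHIR99021). No p-value was computed, since each condition has 1 array, and the number of arrays limits the precision.

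Members and lists were chosen with earlier results of these data known. Named genes are the members, list genes and the 8 brightest identifiers with the detection pattern of T. T2, Bhmt2, Dnahc8, Rerg, Ror2, Grsf1, Aldh1a2 and Vegfa fall outside this rule and were chosen after their values were seen. Of 107 list genes, 102 matched by symbol, 3 by Entrez number through RefSeq (GRCm38.p6) and 2 did not match. Promoters were those of RefSeq, with entries for 7 members and none for Mixl1, Wnt8a and Fgf8. Python 3.11.15, pandas 2.3.3, numpy 2.4.6, matplotlib 3.10.9, R 4.3.3 and limma 3.58.1 were used, and the calculation was tested on simulated data. Alternatives were quantile normalization, equal medians, 2 normexp fits (offset 16), a detection limit of 0.05, detection in both cultures, 3 other rules for the minimum signal, a 2-fold limit and the shorter table.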

Additional observations from a re-analysis of the deposited data

How the results depend on the processing

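No paired analysis was possible because there is a single array for LIF and another for LIF/CHIR99021. Under the 11 alternatives no member with a fold changed direction. For T and Gsc this could not happen, since a gene detected in LIF/CHIR99021 only got a fold only where it was higher there. The 2-fold limit, detection on both arrays and the shorter table could not change the direction of Evx1 or Wnt8a either. Normexp correction fitted on all identifiers, whose background SD (588.4 in LIF and 585.8 in LIF/CHIR99021) exceeded the signal of every member, left 0 members at least 1.5-fold higher, with log2 folds of 0.35 for T, 0.068 for Evx1 and 0.069 for Wnt8a, 4 higher and 1 lower among the other streak and mesendoderm genes, and 55 higher and 48 lower over all identifiers. Fitted on 1-probe identifiers (SD 15.4), it gave 3.70 for T and 1.22 for Gsc. The minimum signal set the size of both bounds. T had 4.71 and Gsc 2.08 with a minimum from all identifiers, and 5.62 and 2.34 with none. A detection p-value under 0.05 gave 3.63 for T and 1.00 for Gsc, and 474 higher and 517 lower identifiers in all. Under these 4 settings (normexp on 1-probe identifiers, both rules for the minimum and the wider detection limit) Gsc passed 1.5-fold, which raised the number of higher members from 3 to 4. Over all identifiers the main setting gave 284 higher and 302 lower. Normexp on 1-probe identifiers gave 271 and 257, the minimum from all identifiers 391 and 385, and no minimum 391 and 390. Detection on both arrays left 2 members with a fold, Evx1 and Wnt8a, and 5 higher and 1 lower of the other streak and mesendoderm genes. Over all identifiers that setting left 203 higher and 227 lower. At a 2-fold limit Evx1 (0.72) no longer passed, and 76 identifiers were higher and 54 lower. The 6 members detected on neither array have no fold, so no change can be shown for them. Snai1 (42.5 in LIF and 61.2 in LIF/CHIR99021) and Eomes in LIF/CHIR99021 (27.2) exceeded the lowest detected several-probe signals (15.1 and 14.8). Both missed detection by their combined p-values. T and Gsc, at background in LIF, have bounds only.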

Other observations

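The array's own annotation names biological processes for each identifier. There were 95 identifiers annotated with gastrulation, mesoderm, somitogenesis, anterior/posterior pattern or endoderm development, terms chosen after seeing the data. Of the 43 with a fold, 7 were at least 1.5-fold higher with CHIR and 2 lower, beside 3.03% and 3.22% of all identifiers with a fold. The median log2 fold of the 43 was 0.01. T and Mixl1 are the members that carry any of the 5 terms. T, Mixl1 and Wnt3a each carry more than 1 term. Of 9 somitogenesis genes with a fold, 4 were higher (T, Axin2, Wnt3a and the Wnt5a receptor Ror2, with 648.8 in LIF and 1016 in LIF/CHIR99021) and Dll1 was lower. Of 19 anterior/posterior pattern genes, 4 were higher (T, Wnt3a, Grsf1 with 3120 and 6034, and the retinoic acid enzyme Aldh1a2 with 24.1 and 42.0) and Otx2 was lower. Of 10 gastrulation genes and 4 endoderm development genes, none passed the limit in either direction, and their median log2 folds were -0.15 and -0.20. Of 12 mesoderm genes, Vegfa alone passed, with 23.2 and 38.2. Vegfa and Aldh1a2 were detected in LIF/CHIR99021 only, so their folds (at least 1.65 and 1.74) are bounds. Their differences of 15.0 and 17.9 units lay inside the central 95% of several-probe identifiers undetected on both arrays (-50.8 to 58.6). Differences between the terms were not tested.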
